A study of Homo sapiens with 10 samples.

Results

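The insulin-like growth factor (IGF) axis was followed at the RNA level as 10 genes of the 57736 gene IDs in the count table, chosen by symbol: the ligands IGF1 and IGF2, the receptor IGF1R, and the binding proteins IGFBP1 to IGFBP7. All 10 symbols were found, and 8 of the 10 genes passed the filter on low counts. IGF1 and IGFBP1 did not. The cells were IMR90, human fetal lung fibroblasts. RNA was sequenced from 5 groups of 2 samples. In the mutant knock-in, cells were infected with a retrovirus expressing RAS, treated with siRNA against METTL3 and given a mutant METTL3 by lentivirus. In the wild type knock-in the lentivirus carried wild type METTL3. The METTL3 knockout had RAS and the siRNA, without METTL3 put back, and senescent control had RAS and a control siRNA. The fifth group had the empty retrovirus and is called growing control below to set it apart from senescent control; the labels do not report its growth. All cells had siRNA at day 4 after the retrovirus and again on the next day. The protocol sets the harvest 48 hours after its lentivirus step, without saying which groups had that step. The titles write knockout and knock-in for what the protocol describes as siRNA and lentivirus, and METTL14 is the gene in the protocol text where titles and column names give METTL3. The sources used here do not name the METTL3 mutant. The column names of the knockout hold the word vec where those of the knock-ins hold WT or MT. Those of senescent control and growing control hold no such word. None of these names states that an empty lentivirus was given. If only the knockout and knock-in cells had a lentivirus, its effect cannot be told apart from that of the siRNA or of METTL3 where these groups are set against senescent control, and if the knockout cells had none, METTL3 and the lentivirus cannot be told apart in the knock-ins against the knockout. The labels do not say that replicates were separate cultures, and p-values measure the spread between these samples only.

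IGF1 and IGF2 are small secreted proteins that bind IGF1R, a receptor tyrosine kinase, which passes the signal through the IRS adaptors to PI3K and AKT and so favours growth and survival. IGFBP1 to IGFBP6 bind both ligands tightly in the fluid around the cell. They hold them away from the receptor, carry them or release them, and proteases such as PAPPA cut the binding proteins to free the ligand. IGFBP7 binds IGFs only weakly and is placed with the family by its amino-terminal domain. Fibroblasts secrete several of these proteins, and IGFBP3, IGFBP5 and IGFBP7 have been studied as secreted factors of senescent cells.

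IGFBP3, IGFBP4 and IGFBP5 were the binding proteins that were lower in both knock-ins than in the METTL3 knockout, and their promoters are shown for that reason. Each run covers 250 bases before to 50 bases after the start site and was taken from RefSeq (GRCh38.p14), which is another build than that of the counts. Capitals mark the GC box GGGCGG on either strand (CCGCCC where it lies on the other strand) and the TATA box TATAAA.
IGFBP3 (chr7:45921223-45921522, - strand): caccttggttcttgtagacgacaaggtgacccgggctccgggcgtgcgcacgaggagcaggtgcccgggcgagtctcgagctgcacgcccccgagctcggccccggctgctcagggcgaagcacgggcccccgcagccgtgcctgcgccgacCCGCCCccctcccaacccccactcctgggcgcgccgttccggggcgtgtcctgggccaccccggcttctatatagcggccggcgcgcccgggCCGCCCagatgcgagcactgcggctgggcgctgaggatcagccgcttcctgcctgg
IGFBP4 (chr17:40443200-40443499, + strand): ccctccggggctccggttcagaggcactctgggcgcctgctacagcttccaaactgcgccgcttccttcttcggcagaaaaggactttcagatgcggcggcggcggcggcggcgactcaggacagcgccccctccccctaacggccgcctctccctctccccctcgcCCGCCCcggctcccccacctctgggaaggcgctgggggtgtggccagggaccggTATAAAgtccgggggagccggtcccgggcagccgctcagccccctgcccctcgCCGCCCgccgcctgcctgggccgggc
IGFBP5 (chr2:216695500-216695799, - strand): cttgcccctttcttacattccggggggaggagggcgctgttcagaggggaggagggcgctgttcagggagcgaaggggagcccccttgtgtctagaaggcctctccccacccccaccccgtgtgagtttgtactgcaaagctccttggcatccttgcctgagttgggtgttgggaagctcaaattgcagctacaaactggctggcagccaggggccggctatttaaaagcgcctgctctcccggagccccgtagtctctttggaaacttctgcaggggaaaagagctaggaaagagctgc
These windows differed in the 5 motifs searched on both strands, which were the TATA box, the GC box, the CCAAT box, the AP-1 motif (TGANTCA) and the NF-kB motif. No hits of different motifs overlapped in these windows. The IGFBP3 window held the GC box at positions -98 and -6, the IGFBP4 window held it at -83 and 25 and the TATA box at -29, and the IGFBP5 window held none of the 5. Of 35116 promoters of this length, 45% held the GC box, 11.5% the TATA box, 34.6% the CCAAT box, 7.71% the AP-1 motif and 1.91% the NF-kB motif. GC content was 74.7% for IGFBP3, 74% for IGFBP4 and 59% for IGFBP5, against a median of 58.7% over all promoters. The table held promoters for 7 of the 10 genes; IGFBP1, IGFBP7 and IGF2 were not among them.

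Total counts ran from 16293975 to 23570266 per sample. METTL3 stood at 114100 and 147800 CPM (counts scaled to a common library total after TMM) in the mutant knock-in, 58380 and 58120 in the wild type knock-in, 23.2 and 28.89 in the knockout, 47.27 and 57.3 in senescent control, and 72.66 and 81.43 in growing control. It took 11.3% and 14.2% of all counts in the mutant knock-in samples. Against senescent control, METTL3 was higher by a log2 change of 10.12 in the wild type knock-in and 11.29 in the mutant. The knock-ins therefore did not return METTL3 RNA to the level of senescent control. HRAS stood at 29.76 and 23.69 CPM in the mutant knock-in, 48.75 and 43.41 in the wild type knock-in, 40.81 and 39.53 in the knockout, 61.03 and 61.31 in senescent control, and 14.75 and 14.6 in growing control. The RAS groups therefore differed in HRAS RNA: it was lower in the knockout than in senescent control (log2 change -0.61, adjusted p = 0.0021), and lower in the mutant knock-in than in senescent control (-1.19, adjusted p = 3.77e-06), the knockout (-0.59, adjusted p = 0.00103) and the wild type knock-in (-0.78, adjusted p = 0.00229). HRAS RNA was also lower in the wild type knock-in than in senescent control (-0.41, adjusted p = 0.009). With a sample left out this change was -0.49 to -0.36 and did not pass each time. Its part in the comparisons of these groups was not tested. Growing control had the widest distance between its samples, at a chi-square per gene of 37.7, and the other 4 groups had 5.47 to 7.93. Of 10 fibroblast markers, all 10 were over 1 CPM in every group. Their summed level was 6068 and 5391 CPM in the mutant knock-in, 8096 and 8566 in the wild type knock-in, 10220 and 10820 in the knockout, 9898 and 10660 in senescent control, and 18140 and 14920 in growing control, so that it ran in an order close to that of IGFBP4 and IGFBP5. Most of the sum was VIM, COL1A1 and COL1A2, so its order is mainly theirs. FAP ran the other way. Its group means were 125.5 CPM in the mutant knock-in, 119.9 in the wild type knock-in and 100.4 in the knockout. They were 78.55 CPM in senescent control and 57.26 in growing control. Single markers differed: against the knockout, 2 of the 10 were higher and 5 lower in the wild type knock-in, and 1 was higher and 7 lower in the mutant knock-in. Of all genes, 18.5% were higher and 14.8% lower in the wild type knock-in, and 24.1% and 24.3% in the mutant knock-in. LUM was the marker higher in both, at 53.68 and 54.15 CPM in the mutant knock-in, 77.79 and 73.39 in the wild type knock-in and 29.15 and 33.85 in the knockout. The part of the marker sum in the results below was not tested, and in these bulk samples fewer cells of a type and less RNA per cell cannot be told apart. Leukocyte markers summed to 170.1 and 177 CPM in the mutant knock-in, 157.1 and 163.4 in the wild type knock-in, and 66.78 to 79.54 in the other 6 samples. Most of the sum was CD68, a lysosomal protein, at 163.7 and 168.1 CPM in the mutant knock-in, 151.9 and 160.3 in the wild type knock-in and 77 and 75.88 in the knockout. PTPRC, the leukocyte marker CD45, had 49 and 93 counts in the mutant knock-in, 24 and 20 in the wild type knock-in, 2 and 6 in the knockout, 9 and 12 in senescent control, and 0 and 0 in growing control, while CD3E was at 0 in every sample. CD68 and PTPRC, 2 of 3 leukocyte markers tested, were higher in each knock-in than in the knockout. The share of all genes higher was 18.5% in the wild type and 24.1% in the mutant knock-in. The part of these markers in the results was not tested.

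Senescent control differed from growing control in 7 of the 8 genes tested, with IGFBP2, IGFBP3, IGFBP4, IGFBP6 and IGF1R lower and IGFBP7 and IGF2 higher. Over all genes, 45% passed the same test (adjusted p under 0.05, edgeR quasi-likelihood), 19.7% as higher and 25.3% as lower. The METTL3 knockout differed from senescent control in 2 of 8, with IGF1R higher and IGFBP5 lower, against a background of 15.8% (7.17% higher, 8.62% lower). Both knock-ins had lower IGFBP3, IGFBP4 and IGFBP5 than the knockout and no gene of the 8 higher. The background was 33.3% for the wild type knock-in (18.5% higher, 14.8% lower) and 48.4% for the mutant knock-in (24.1% higher, 24.3% lower), so that 3 of 8 is near the share of all genes in each. Mutant and wild type knock-in differed in 0 of 8 by edgeR's test, against a background of 12.5% (5.16% higher, 7.39% lower), with 1 of 8 at an unadjusted p under 0.05 and 1 of 8 called by DESeq2, IGFBP5 in each case. The knock-ins against senescent control gave 6 of 8 for wild type, with 2 higher and 4 lower (background 39.9%, with 20.8% higher and 19.1% lower), and 5 of 8 for the mutant, with 2 higher and 3 lower (background 53.3%, with 27% higher and 26.3% lower). The knockout against growing control gave 7 of 8, with 1 higher and 6 lower (background 46.4%, with 19.7% higher and 26.7% lower). Comparisons that name the same group share its samples.

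**Figure D1:**
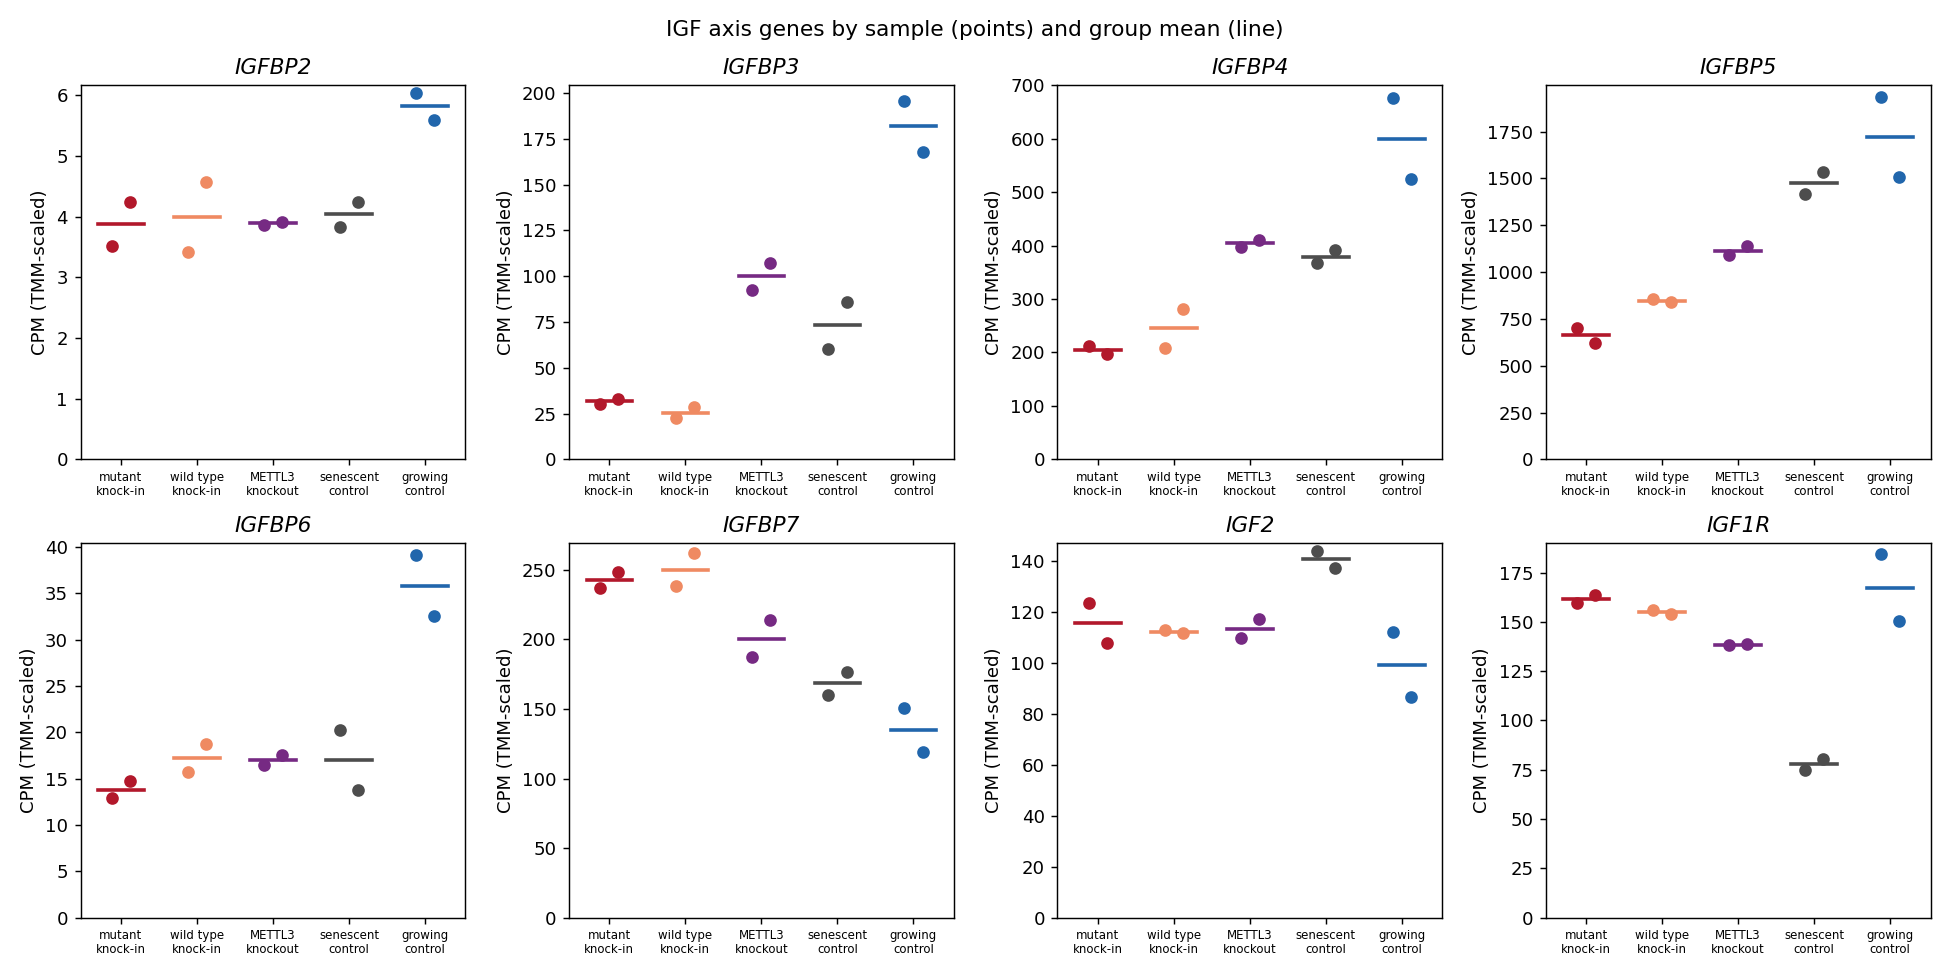
CPM (TMM-scaled) of the 8 genes that passed the filter, by group from mutant knock-in on the left to growing control on the right; points are samples and lines are group means of 2. IGFBP3 lies between 22.39 and 32.87 CPM in the 4 knock-in samples and at 60.43 or more in the other 6, and IGF1R is lowest in senescent control, at 74.79 and 80.54 CPM.

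Of the ligands, only IGF2 was expressed at a level that could be tested. IGF1 (ENSG00000017427, chromosome 12) had 6 and 10 counts in the mutant knock-in, 3 and 3 in the wild type knock-in, 7 and 2 in the knockout, 5 and 3 in senescent control, and 4 and 2 in growing control, 45 in all. Pooled over the samples of a group this is 0.491 CPM in the mutant knock-in (exact 95% Poisson interval 0.281 to 0.798, counting error only) and 0.133 CPM in growing control (0.0487 to 0.289). In the 3 groups between, pooled IGF1 lay at 0.159 to 0.247 CPM. The exons of IGF1 share 6693 of 8122 bases with HELLPAR, a long RNA on the opposite strand that is not among the gene IDs of the count table. Without a stated strand setting, these few reads cannot be assigned to IGF1 for certain.

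IGF2 (ENSG00000167244, chromosome 11), the fetal growth factor of the pair and an imprinted gene, stood at 123.6 and 107.9 CPM in the mutant knock-in and 112.9 and 111.7 CPM in the wild type knock-in. It stood at 109.6 and 117.1 CPM in the knockout, 144.1 and 137.1 CPM in senescent control, and 112 and 86.49 CPM in growing control. Senescent control was the highest group and overlapped no other, while the remaining 4 groups overlapped. IGF2 was higher in senescent control than in growing control by 0.50 on the log2 scale (SE 0.118, adjusted p = 0.0044). Against senescent control, it was lower by a log2 change of -0.32 in the wild type knock-in (SE 0.118, adjusted p = 0.0452). That call ended without any of the 4 samples compared (adjusted p 0.088 to 0.155) and under upper-quartile scaling (adjusted p = 0.0874). The changes of -0.31 in the knockout (adjusted p = 0.101) and -0.28 in the mutant knock-in (adjusted p = 0.0629) against senescent control did not pass, but did without the filter on low counts (adjusted p = 0.0297 and 0.00668) and with only the compared groups in the fit (adjusted p = 9.65e-05 and 0.00137). Among the 3 METTL3 siRNA groups no IGF2 change passed, with 95% intervals of -0.27 to 0.24 for wild type knock-in against knockout, -0.23 to 0.29 for mutant knock-in against knockout and -0.21 to 0.30 for mutant against wild type. H19, the noncoding RNA gene beside IGF2, had 0 to 3 counts per sample. IGF2 shares 5144 of its 6979 exon bases with another gene ID of the same symbol (ENSG00000284779) in the annotation, for which no count is used here. It also shares exons with the fusion gene INS-IGF2, which had 0 counts, with a shorter overlapping gene (AC132217.1) with 20 to 76 counts per sample, and with the antisense gene IGF2-AS with 0 to 6.

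IGF1R (ENSG00000140443, chromosome 15), the receptor through which both ligands signal, was lowest in senescent control. It stood at 159.8 and 163.8 CPM in the mutant knock-in, 155.9 and 154.2 CPM in the wild type knock-in and 138 and 138.6 CPM in the knockout. It stood at 74.79 and 80.54 CPM in senescent control and at 184.4 and 150.2 CPM in growing control. The samples of senescent control lay below those of every other group, the knockout lay between them and the knock-ins, and the samples of growing control lay on either side of both knock-ins. Senescent control was lower than growing control by 2.15-fold (log2 change -1.11, SE 0.103, adjusted p = 3.94e-06). The knockout was 1.78-fold higher than senescent control (log2 change 0.83, SE 0.103, adjusted p = 0.000177), the wild type knock-in was higher by a log2 change of 1.00 (adjusted p = 1.74e-05), and the mutant knock-in by 1.06 (adjusted p = 5.26e-06). These 4 calls held under every alternative tried. Putting METTL3 back did not move IGF1R past the threshold relative to the knockout: the log2 change was 0.17 for wild type (95% interval -0.06 to 0.39, adjusted p = 0.239) and 0.23 for the mutant (0.01 to 0.45, adjusted p = 0.0841). The mutant knock-in passed under upper-quartile scaling (adjusted p = 0.0439), and both knock-ins passed with only the compared groups in the fit (adjusted p = 0.0189 for wild type and 0.0011 for the mutant). The knockout was lower than growing control by a log2 change of -0.27 (adjusted p = 0.0417), a call that ended under 9 of the 11 alternatives tried, among them RLE scaling (adjusted p = 0.0725).

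Among the binding proteins, IGFBP3 had the widest range, 2.83 on the log2 scale between its highest and lowest group means. IGFBP3 (ENSG00000146674, chromosome 7) encodes the main carrier of IGFs in blood and also binds the cell surface. It stood at 30.36 and 32.87 CPM in the mutant knock-in, 22.39 and 28.77 CPM in the wild type knock-in and 92.36 and 107.5 CPM in the knockout. Senescent control had 60.43 and 86.01 CPM and growing control 195.8 and 167.9 CPM. The groups did not overlap, and the order of group means was wild type knock-in, mutant knock-in, senescent control, knockout, growing control. Against the knockout, the wild type knock-in was 3.89-fold lower (log2 change -1.96, SE 0.178, adjusted p = 2.2e-05) and the mutant knock-in 3.16-fold lower (log2 change -1.66, SE 0.176, adjusted p = 3.18e-05). Against senescent control, the wild type knock-in was lower by a log2 change of -1.51 (adjusted p = 8.76e-05) and the mutant by -1.21 (adjusted p = 0.000191). The 2 knock-ins differed by 0.30, mutant over wild type (95% interval -0.10 to 0.70, adjusted p = 0.303). Senescent control was lower than growing control by 2.48-fold (log2 change -1.31, SE 0.168, adjusted p = 0.00012). In the knockout the change from senescent control was 0.45 (SE 0.168, adjusted p = 0.103); without senescent control sample 2 it passed (adjusted p = 0.0269), and without a filter on low counts too (adjusted p = 0.00134). The knockout was below growing control by a log2 change of -0.86 (adjusted p = 0.00183), which did not pass without growing control sample 1 (adjusted p = 0.0791).

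IGFBP4 (ENSG00000141753, chromosome 17) encodes a binding protein known mainly as an inhibitor of IGF action and as the substrate of PAPPA. Its levels were 211.9 and 196.7 CPM in the mutant knock-in, 208.9 and 281.5 CPM in the wild type knock-in, 397.9 and 411.3 CPM in the knockout, 367.4 and 391.1 CPM in senescent control, and 676.5 and 523.9 CPM in growing control. The knock-ins overlapped each other and lay below the other 3 groups, and growing control lay above all. Relative to the knockout, the mutant knock-in was lower by 1.98-fold (log2 change -0.99, SE 0.146, adjusted p = 0.000221) and the wild type knock-in by 1.65-fold (log2 change -0.72, SE 0.145, adjusted p = 0.00282). Relative to senescent control, the changes were -0.89 for the mutant (adjusted p = 0.000347) and -0.63 for wild type (adjusted p = 0.00511); the second did not pass without wild type knock-in sample 1 (adjusted p = 0.0532). The knockout and senescent control differed by 0.09 (95% interval -0.22 to 0.41, adjusted p = 0.738). Mutant against wild type knock-in gave -0.26 (95% interval -0.58 to 0.05, adjusted p = 0.253). It passed under 1 of the 11 alternatives tried (adjusted p = 0.0437). Senescent control was below growing control by a log2 change of -0.66 (SE 0.145, adjusted p = 0.0032), and this did not pass without growing control sample 1 (adjusted p = 0.107).

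IGFBP5 (ENSG00000115461, chromosome 2), which encodes a binding protein held largely in the extracellular matrix, had the highest CPM of the 10 genes in every sample. It stood at 700.6 and 622.7 CPM in the mutant knock-in and 855 and 841.9 CPM in the wild type knock-in. It stood at 1090 and 1138 CPM in the knockout, 1418 and 1535 CPM in senescent control and 1934 and 1508 CPM in growing control. Only the controls overlapped, and each of the other steps went the same way, mutant below wild type below knockout below senescent control. The mutant knock-in was lower than the knockout by 1.68-fold (log2 change -0.75, SE 0.115, adjusted p = 0.000206). The wild type knock-in was lower than the knockout by 1.31-fold (log2 change -0.39, SE 0.114, adjusted p = 0.019), and without any of the 4 samples this did not pass (adjusted p 0.0543 to 0.0856). The same was found for the knockout against senescent control, where the log2 change was -0.41 (SE 0.114, adjusted p = 0.0298) and adjusted p ran from 0.0855 to 0.192 without a sample. Over the longer step, IGFBP5 was below senescent control by -0.80 in the wild type knock-in (adjusted p = 0.000181) and by -1.16 in the mutant knock-in (adjusted p = 6.31e-06). Mutant against wild type gave -0.36 (SE 0.114, adjusted p = 0.0595). This change passed under 3 of the 11 alternatives tried, among them DESeq2 (adjusted p = 0.0315), at an adjusted p as low as 0.00216. Senescent control against growing control gave -0.22 (95% interval -0.47 to 0.03, adjusted p = 0.132), and without growing control sample 2 it passed (adjusted p = 0.000757).

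IGFBP2 and IGFBP6 passed the test in senescent control against growing control and in the knockout against growing control, and in none of the comparisons among the 4 groups with RAS. IGFBP6 (ENSG00000167779, chromosome 12), a binding protein that prefers IGF2, stood at 12.88 and 14.69 CPM in the mutant knock-in, 15.68 and 18.7 CPM in the wild type knock-in, 16.45 and 17.52 CPM in the knockout, 20.29 and 13.79 CPM in senescent control, and 39.09 and 32.52 CPM in growing control. All 8 samples with RAS lay below both growing control samples. Senescent control was lower than growing control by 2.11-fold (log2 change -1.08, SE 0.167, adjusted p = 0.000341), and the knockout by 2.11-fold too (adjusted p = 0.000414). The knockout differed from senescent control by 0.004 on the log2 scale (95% interval -0.38 to 0.39, adjusted p = 0.995), and the mutant knock-in from the knockout by -0.30 (adjusted p = 0.192, and 0.0382 without a filter on low counts). Mutant knock-in against senescent control also gave -0.30 (adjusted p = 0.186), and passed without that filter (adjusted p = 0.0275) and without senescent control sample 2 (adjusted p = 0.0199). IGFBP2 (ENSG00000115457, chromosome 2), which lies 7.67 kb from IGFBP5 on the opposite strand, was low, at 3.519 and 4.244 CPM in the mutant knock-in, 3.417 and 4.57 in the wild type knock-in, 3.867 and 3.911 in the knockout, 3.838 and 4.246 in senescent control, and 6.04 and 5.599 in growing control. Its change in senescent control against growing control was -0.52 (SE 0.18, adjusted p = 0.0326), which did not pass with DESeq2 (adjusted p = 0.19) or without any of the 4 samples (adjusted p 0.056 to 0.194). In the knockout against growing control it was -0.58 (adjusted p = 0.0214), and this too did not pass with DESeq2 (adjusted p = 0.132), with only the compared groups (adjusted p = 0.056), or without growing control sample 1 or either knockout sample (adjusted p 0.0847 to 0.116). IGFBP1 (ENSG00000146678, chromosome 7), which lies 18.6 kb from IGFBP3 on the opposite strand and is best known from liver, had 0 to 3 counts per sample and 17 in all. Its pooled level was 0.184 CPM in the mutant knock-in (exact 95% Poisson interval 0.0676 to 0.401) and 0.0664 CPM in growing control (0.0137 to 0.194), and the 4 hepatocyte markers summed to 0.2534 CPM or less in every sample.

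IGFBP7 (ENSG00000163453, chromosome 4) ran the other way. It stood at 237.2 and 248.5 CPM in the mutant knock-in and 238.3 and 262 CPM in the wild type knock-in. It stood at 187.3 and 213.8 CPM in the knockout, 160.3 and 176.3 CPM in senescent control, and 150.7 and 119.1 CPM in growing control. The knock-ins overlapped each other and lay above the other groups, and growing control lay below all. IGFBP7 was higher than in senescent control by 1.49-fold in the wild type knock-in (log2 change 0.57, SE 0.119, adjusted p = 0.00235) and by 1.44-fold in the mutant knock-in (log2 change 0.53, SE 0.119, adjusted p = 0.00254). The single steps were smaller: 0.32 in senescent control against growing control (adjusted p = 0.045, and 0.0582 to 0.187 without growing control sample 2 or without either senescent control sample), 0.25 in the knockout against senescent control (adjusted p = 0.184), and 0.32 and 0.28 in the wild type and mutant knock-ins against the knockout (adjusted p = 0.0564 and 0.0726). With only the compared groups in the fit, the last 3 passed (adjusted p = 0.00506 for the knockout, 0.00254 for the wild type and 0.00055 for the mutant knock-in). The wild type change also passed without the filter on low counts (adjusted p = 0.0215) and the mutant change under upper-quartile scaling (adjusted p = 0.0364). The knockout was above growing control by 0.57 (adjusted p = 0.00214). IGFBP7 shares 270 of its 1930 exon bases with POLR2B, an RNA polymerase II subunit gene on the opposite strand with 2801 to 5504 counts per sample, so without the strand setting part of the reads of each gene may have been counted for the other.

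**Figure D2:**
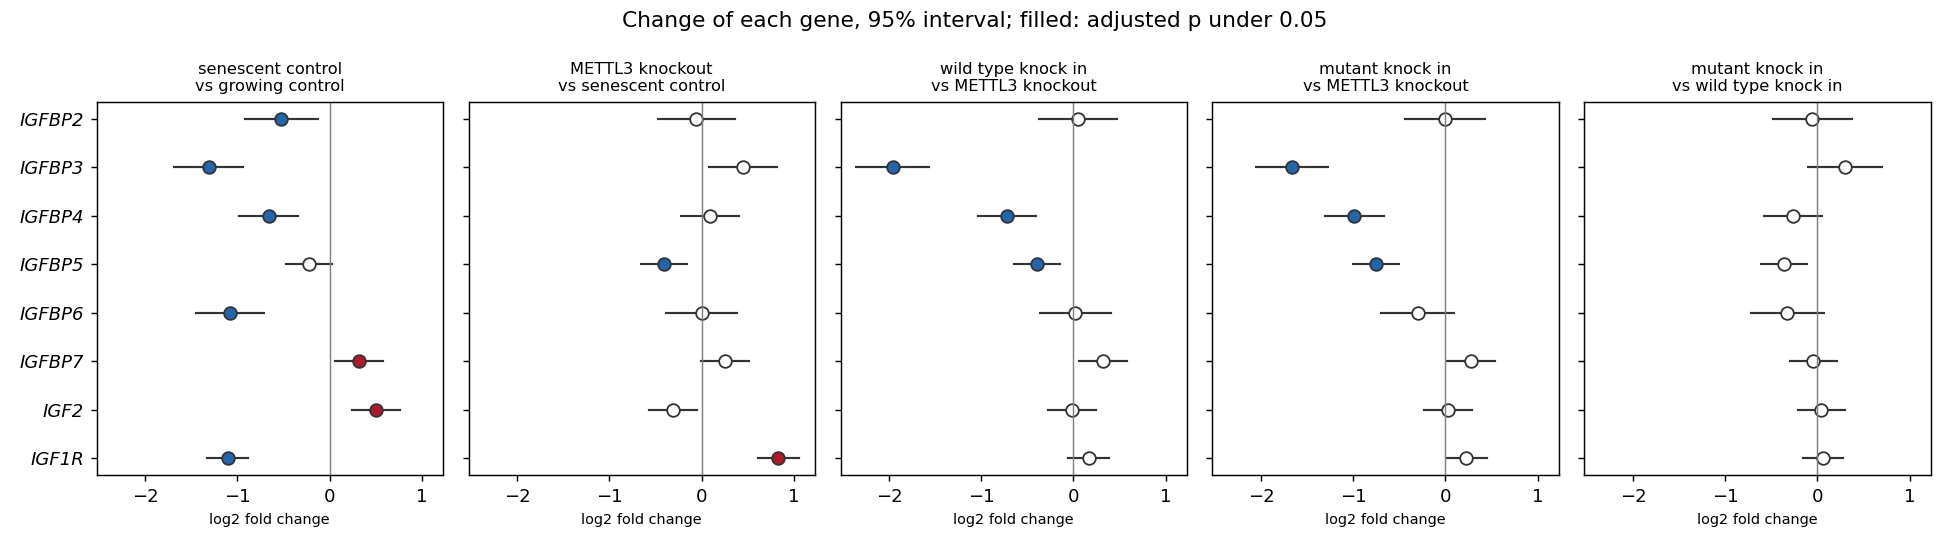
Log2 fold change of each gene (rows) in the 5 stepwise comparisons (panels), the group named first over the group named second; bars are 95% intervals and filled points have an adjusted p under 0.05, red for higher and blue for lower. IGFBP3, IGFBP4 and IGFBP5 are the filled points against the knockout, at -1.96, -0.72 and -0.39 in the wild type knock-in and -1.66, -0.99 and -0.75 in the mutant knock-in, and no point is filled between the knock-ins.

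Levels of different genes were compared per kilobase of exon, with the union of the exons in GENCODE 29. Summed over IGFBP1 to IGFBP7, the level was 345 and 334 CPM per kb in the mutant knock-in, 368.4 and 415.7 in the wild type knock-in, 480.4 and 511.9 in the knockout, 499.3 and 537.3 in senescent control, and 759 and 596.1 in growing control. The knockout and senescent control overlapped, and the other groups did not. IGFBP4, IGFBP5 and IGFBP7 made up most of the sum in every group. The share of IGFBP7 was 37.1% ± 2.08 (SD, n = 2) in the mutant knock-in and 33.1% ± 0.601 in the wild type knock-in, against 20.9% ± 1.02 in the knockout, 16.8% ± 0.259 in senescent control and 10.3% ± 0.0471 in growing control. IGFBP4 made up 27.4% ± 0.807 in the mutant knock-in, 28.3% ± 3.54 in the wild type knock-in, 37.1% ± 0.796 in the knockout, 33.3% ± 0.257 in senescent control and 40.2% ± 0.396 in growing control. IGFBP5 made up 30.2% ± 1.82 in the mutant knock-in, 33.7% ± 3.24 in the wild type knock-in, 34.9% ± 0.492 in the knockout, 44.2% ± 0.179 in senescent control and 39.4% ± 0.198 in growing control. By these means IGFBP7 had the highest level per kb in the mutant knock-in and IGFBP5 in senescent control. In the wild type knock-in IGFBP5 and IGFBP7 were within their spread, while with the longest transcript IGFBP7 was 39% ± 0.643 and IGFBP5 30.5% ± 2.88. IGFBP4 and IGFBP5 stood close in the knockout and in growing control, where their order in growing control turned round with the longest transcript (36.3% ± 0.476 for IGFBP4 and 36.8% ± 0.306 for IGFBP5). IGFBP3 was 1.42% ± 0.13 of the sum in the wild type knock-in and 5.9% ± 0.367 in growing control. With the longest transcript in place of the union of exons, IGFBP3 was 10.1% ± 0.594 in growing control, since its length is then 2412 bases and not 4571. IGF2 averaged 16.6 ± 1.59 CPM per kb in the mutant knock-in, 20.2 ± 0.71 in senescent control and 14.2 ± 2.59 in growing control. IGF1R averaged 11.6 ± 0.203, 5.57 ± 0.291 and 12 ± 1.73 CPM per kb in the same 3 groups.

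**Figure D3:**
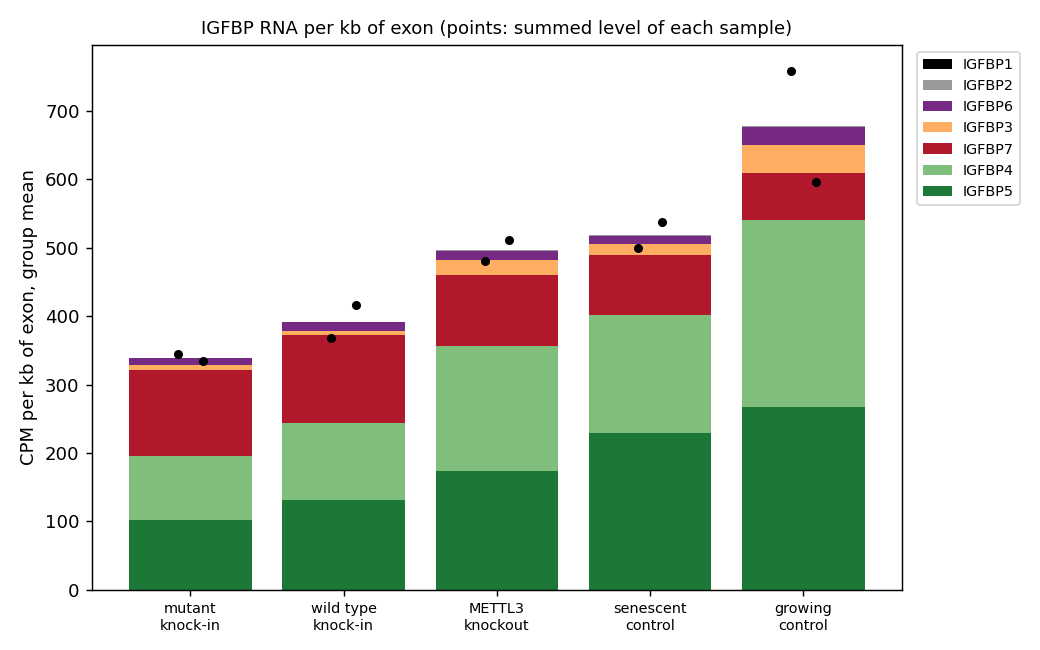
Summed RNA level of the 7 binding proteins in CPM per kb of exon, by group; stacked bars are group means of 2 samples by gene and points are the summed level of each sample. The mutant knock-in has the lowest sum, at 345 and 334 CPM per kb, and growing control the highest, at 759 and 596.1, while the red IGFBP7 segment is larger in the knock-ins than in growing control.

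The rest of the pathway was read from 6 lists of 42 genes, of which 36 passed the filter: other receptors, adaptors, proteases of the binding proteins with their inhibitors, partners and relatives of the binding proteins, the PI3K, AKT and FOXO genes, and regulators of IGF2 RNA. In senescent control against growing control, 10 of 36 were higher and 14 lower (median log2 change 0.01, all genes -0.03), against 19.7% higher and 25.3% lower over all genes. In the knockout against senescent control, 4 were higher and 5 lower (median -0.13, all genes 0.01), against 7.17% and 8.62% of all genes. The wild type knock-in against the knockout gave 8 higher and 6 lower (median -0.02, all genes 0.02), against 18.5% and 14.8% of all genes. The mutant knock-in against the knockout gave 8 higher and 13 lower (median -0.13, all genes 0.01), against 24.1% and 24.3% of all genes. Mutant against wild type gave 3 higher and 7 lower (median -0.12, all genes -0.003), against 5.16% and 7.39% of all genes.

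Among receptors and adaptors, INSR and IRS2 joined IGF1R in being lower in senescent control. INSR, the insulin receptor, stood at 9.925 and 9.588 CPM in senescent control, against 22.67 and 19.98 CPM in growing control (log2 change -1.13, adjusted p = 1.84e-05). IRS2, an adaptor of both receptors, stood at 68.53 and 88.61 CPM in the mutant knock-in, 61.26 and 66.4 in the wild type knock-in, 35.9 and 36.87 in the knockout, 15.63 and 15.43 in senescent control, and 41.98 and 31.4 in growing control. The groups of IRS2 overlapped only between knockout and growing control, and the knock-ins were highest. Its log2 changes were -1.24 in senescent control against growing control (adjusted p = 6.24e-05), 1.23 in the knockout against senescent control (adjusted p = 0.00027), and, against the knockout, 1.11 in the mutant knock-in (adjusted p = 8.55e-05) and 0.81 in the wild type knock-in (adjusted p = 0.00127). IRS1, the related adaptor, was lower in senescent control by -0.89 (adjusted p = 3.57e-06), at 171.7 and 176.5 CPM, against 330.7 and 313.5 CPM in growing control. It was lower than the knockout by -0.33 in the mutant knock-in (adjusted p = 0.00566). SHC1, an adaptor toward RAS, was lower in the knockout than in senescent control (log2 change -0.58, adjusted p = 0.000677), at 333.6 and 338 CPM in the knockout and 510.1 and 495.5 CPM in senescent control. IGF2R, which takes IGF2 to the lysosome, was higher in senescent control than in growing control by 0.48 (adjusted p = 0.00164). Its changes of -0.33 in the knockout against senescent control (adjusted p = 0.0355) and 0.31 in the wild type knock-in against the knockout (adjusted p = 0.0265) did not pass without any sample compared (adjusted p 0.107 to 0.21 over both). INSRR had 0 counts, and IRS4 and GRB14 had 0 to 5 counts per sample.

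Of the 6 proteases and inhibitors tested, 3 were higher and 2 lower in senescent control than in growing control, against 19.7% higher and 25.3% lower over all genes. PAPPA, which cuts IGFBP4 and IGFBP5, stood at 256 and 237.2 CPM in the mutant knock-in, 327.2 and 327.7 in the wild type knock-in, 213.1 and 215 in the knockout, 253.3 and 259.7 in senescent control, and 106 and 113.1 in growing control. It was higher in senescent control than in growing control (log2 change 1.23, adjusted p = 2.82e-07) and higher in the wild type knock-in than in the knockout (0.61, adjusted p = 0.000174). STC1, a glycoprotein that inhibits PAPPA, stood at 1028 and 922.5 CPM in the mutant knock-in, 1553 and 1724 in the wild type knock-in, 1027 and 1140 in the knockout, 3729 and 3752 in senescent control, and 247.5 and 260.2 in growing control. Mutant knock-in and knockout were the STC1 groups that overlapped, and growing control was the lowest. The knockout was 3.45-fold below senescent control (log2 change -1.79, adjusted p = 2.83e-07), and the wild type knock-in was above the knockout by 0.60 (adjusted p = 0.000478). HTRA1, a secreted protease of IGFBP5, stood at 46.12 and 45.06 CPM in senescent control and 88.42 and 74.62 CPM in growing control. PAPPA2, a relative of PAPPA, had 12 and 10 counts in the mutant knock-in, 6 and 16 in the wild type knock-in, 1 and 3 in the knockout, 5 and 4 in senescent control, and 0 and 0 in growing control. At such counts its fitted changes are no measure of size. Its call in senescent control did not pass without senescent control sample 1. The calls of the knock-ins against the knockout did not pass with DESeq2 (adjusted p = 0.165 for wild type and 0.0945 for the mutant). Neither of these calls held each time a sample was left out.

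The relatives of the binding proteins that could be tested were mostly lower in the knock-ins than in the knockout, with 5 of 5 lower in the wild type knock-in (14.8% of all genes) and 4 of 5 in the mutant knock-in (24.3% of all genes). CCN1, a matricellular protein with an IGFBP-like domain, stood at 158.2 and 155.2 CPM in the mutant knock-in, 169.2 and 209.5 in the wild type knock-in, 342 and 364 in the knockout, 178.3 and 203 in senescent control, and 472.6 and 391.6 in growing control. The knock-ins overlapped or lay below senescent control, and the knockout lay between the controls. Its log2 changes were 0.89 in the knockout against senescent control (adjusted p = 0.000389), -0.90 in the wild type knock-in (adjusted p = 0.000172) and -1.17 in the mutant knock-in (adjusted p = 1.44e-05) against the knockout. CCN2, its relative, was higher in the knockout than in senescent control by 1.23 (adjusted p = 0.00011) and lower in the mutant knock-in than in the knockout by -0.76 (adjusted p = 0.000783). KAZALD1, an IGFBP-related secreted protein, was low, at 1.074 and 0.8867 CPM in the mutant knock-in, 0.9762 and 1.306 in the wild type knock-in, 2.482 and 2.503 in the knockout, 0.9322 and 0.9131 in senescent control, and 5.647 and 5.151 in growing control. Its log2 changes were 1.43 in the knockout against senescent control (adjusted p = 0.00206) and, against the knockout, -1.11 in the wild type knock-in (adjusted p = 0.00448) and -1.34 in the mutant knock-in (adjusted p = 0.00112). ESM1, an endothelial proteoglycan with an IGFBP-like domain, stood at 8.469 and 7.157 CPM in the mutant knock-in, 3.722 and 4.476 in the wild type knock-in, 10.39 and 8.866 in the knockout, 9.706 and 7.99 in senescent control, and 0.6566 and 1.254 in growing control. The wild type knock-in was lower than the knockout by -1.22 (adjusted p = 0.000767). IGFALS, the third partner of the circulating complex of IGF and IGFBP3, had 0 to 2 counts per sample, and IGFBPL1 had 0 or 1.

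**Figure D4:**
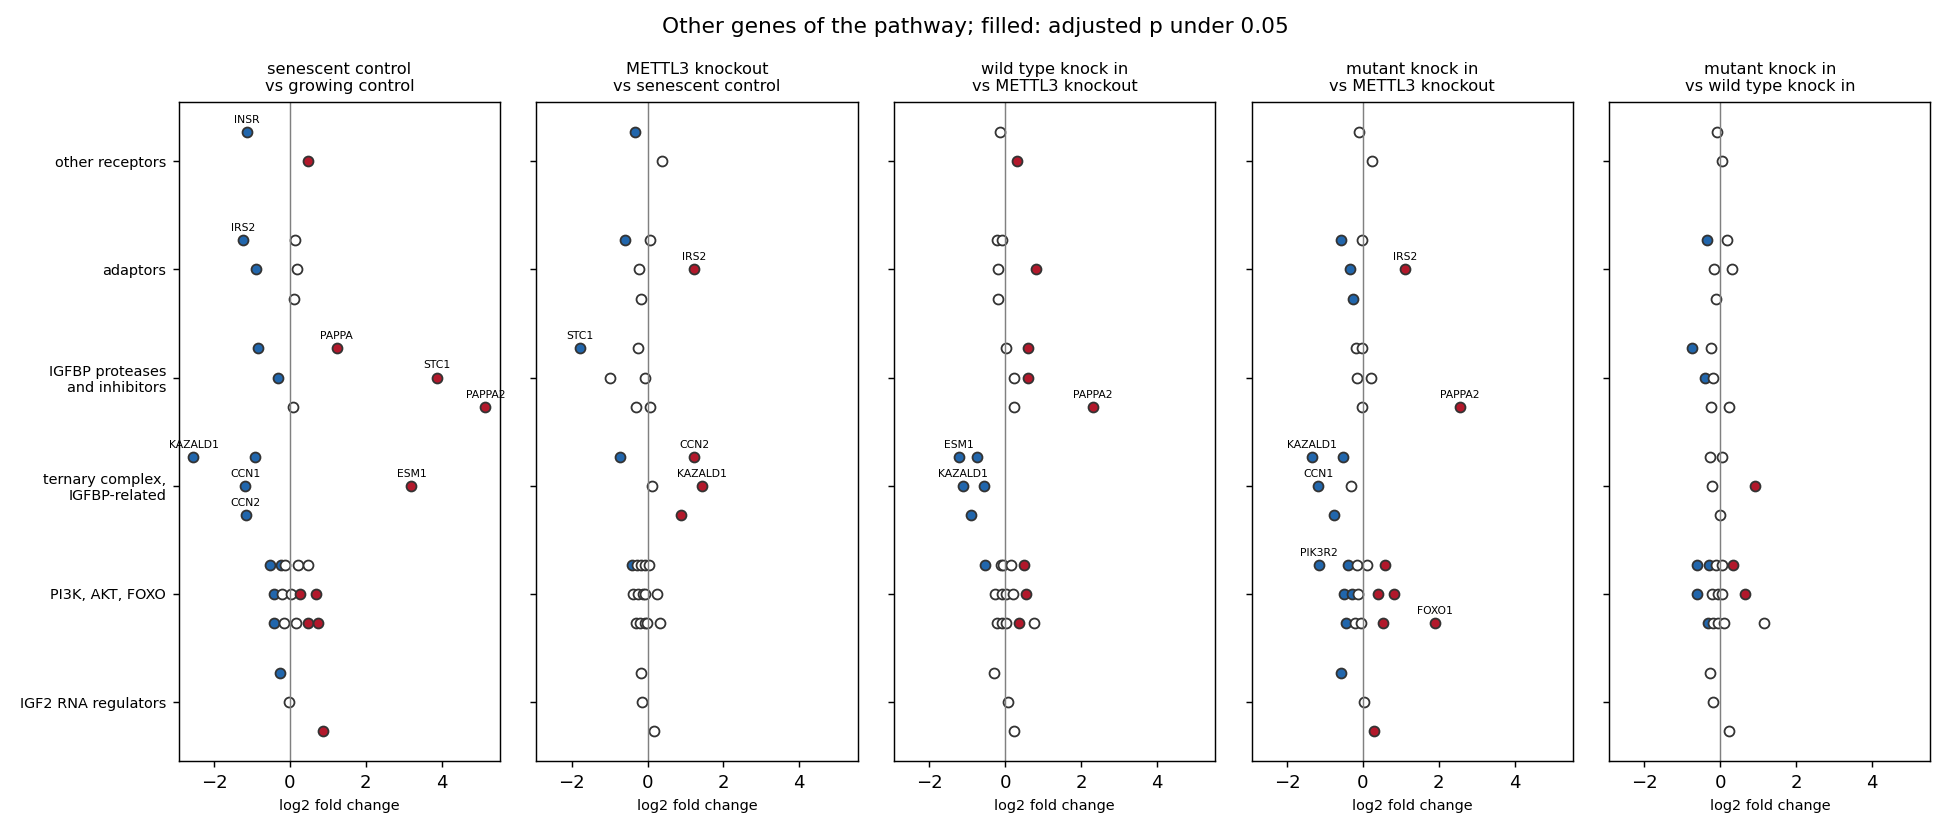
Log2 fold change of the other genes of the pathway (points), by list (rows) and stepwise comparison (panels), the group named first over the group named second; filled points have an adjusted p under 0.05, red for higher and blue for lower, and points of a list are set at 3 heights only to keep them apart. The relatives of the binding proteins lie to the left against the knockout, with KAZALD1 at -1.11 in the wild type knock-in and -1.34 in the mutant, and PAPPA2 in the panel of senescent control is a fitted value against 0 counts in growing control.

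Of 15 PI3K, AKT and FOXO genes, 1 passed in the knockout against senescent control, against 15.8% of all genes (8.62% lower). It was PIK3CD, at a log2 change of -0.41 (adjusted p = 0.0164). With a sample left out its change was -0.44 to -0.38 and did not pass. In the mutant knock-in against the knockout, 5 were higher and 5 lower, against 24.1% higher and 24.3% lower over all genes. PIK3R2, a regulatory subunit of PI3K, stood at 44.55 and 36.67 CPM in the mutant knock-in, 58.39 and 64.95 in the wild type knock-in, and 87.22 and 92.62 in the knockout, with changes against the knockout of -1.15 in the mutant knock-in (adjusted p = 1.87e-05) and -0.54 in the wild type knock-in (adjusted p = 0.00475, and 0.0539 without wild type knock-in sample 1). PIK3R1, another regulatory subunit, stood at 57.62 and 56.31 CPM in the mutant knock-in and 33.71 and 31.03 CPM in the knockout (log2 change 0.82, adjusted p = 0.000403). FOXO1, a transcription factor that AKT keeps out of the nucleus, was low, with 23 and 21 counts in the mutant knock-in and 5 and 8 in the knockout (log2 change 1.91, adjusted p = 0.00216). In senescent control against growing control, PIK3CB and PIK3CA, catalytic subunits of PI3K, were higher by 0.74 and 0.69 (adjusted p = 2.06e-05 and 0.00193), and FOXO3 was lower by -0.51 (adjusted p = 0.000551). IGF2BP3, an RNA-binding protein named for its binding to IGF2 RNA, stood at 250.8 and 237.1 CPM in the mutant knock-in, 361.6 and 370.2 in the knockout, 405.1 and 409.3 in senescent control, and 177.1 and 270 in growing control. Senescent control was above growing control by 0.86 (adjusted p = 0.000852), and the mutant knock-in was below the knockout by -0.58 (adjusted p = 0.00811, and 0.059 without mutant knock-in sample 2).

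The genes most like IGFBP3, IGFBP4 and IGFBP5 were taken by Pearson correlation of log2 CPM over the 10 samples among 10639 genes, as a description, since samples of a group share their treatment. They were YY1 (r = 0.991), CTSC (0.991) and ZNF516 (0.989) for IGFBP3, RPS6KA4 (0.995), FSCN1 (0.993) and CAVIN3 (0.992) for IGFBP4, and SREBF2 (0.994), ALDOA (0.993) and UBA1 (0.992) for IGFBP5. ALDOA, a glycolytic enzyme, stood at 296.4 and 278.8 CPM in the mutant knock-in, 400.1 and 427.5 in the wild type knock-in, 526.7 and 529.4 in the knockout, 714.8 and 714.2 in senescent control, and 934.5 and 768.4 in growing control. YY1, a transcription factor, ran over a narrower range than IGFBP3, at 67.4 and 67.96 CPM in the mutant knock-in and 99.41 and 94.46 CPM in growing control. No gene was named for more than a single binding protein. Only the closest genes of each were kept, so the lack of a shared name does not show different patterns.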

How the data were processed

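The authors deposited read counts by Ensembl gene as whole numbers, not normalized, made with Bowtie2 (version not given) and RSEM 1.2.12 on hg19, per the submitters' processing notes. RSEM gives estimated counts, so the whole numbers may be rounded. The sources used here do not name the annotation, the strand setting or the handling of reads that map to several genes. Gene IDs were matched to GENCODE 29 (GRCh38) for symbols, of which 39501 were found, and for exon lengths. These counts went unchanged into edgeR 4.0.16 (R 4.3.3): filterByExpr with a minimum count of 10 left 16760 genes, scaling was by TMM, and a model with a coefficient per group over all 10 samples (5 residual degrees of freedom, common biological coefficient of variation 9.22%) gave quasi-likelihood tests, two-sided, with Benjamini-Hochberg adjustment over all genes. A gene was called higher or lower, and is so described, at an adjusted p under 0.05. Each SE is the absolute log2 change over the square root of F, and so rests on the spread of all groups. Other genes of the pathway were named as up to 3 per list and comparison with the largest absolute log2 change among those called, and a gene so named may appear with its values in other comparisons. Listed genes under the filter (INSRR, IRS4, GRB14, IGFALS, IGFBPL1, H19) are named with their counts only. The marker genes VIM, COL1A1, COL1A2, FAP, LUM, CD68, PTPRC and CD3E were named after their values were seen. Genes, lists and tests were chosen with earlier results of these data known. The steps were tested on simulated data. Alternatives were RLE and upper-quartile scaling, METTL3 left out, no filter, DESeq2 1.42.0, the compared groups alone, a replicate block and each sample left out.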

Additional observations from a re-analysis of the deposited data

Results flagged for a closer look

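The mutant and the wild type knock-in differed in their change from the METTL3 knockout for 10 of the 36 pathway genes tested and 0 of the 8 IGF axis genes, by edgeR's test of mutant against wild type knock-in; both changes use the same knockout samples. Over all genes, 12.5% passed the test of mutant against wild type knock-in, 5.16% as higher and 7.39% as lower. Values are given for the 7 of the 10 pathway genes that are among the up to 3 genes named per list. ESM1 was higher in the mutant by 0.92 on the log2 scale (adjusted p = 0.0171), at 8.469 and 7.157 CPM in the mutant knock-in and 3.722 and 4.476 CPM in the wild type knock-in. STC1 was lower in the mutant by a log2 difference of -0.75 (adjusted p = 0.00127), and PAPPA by -0.41 (adjusted p = 0.011). PIK3R1 was higher by 0.65 (adjusted p = 0.0115) and PIK3R2 lower by -0.60 (adjusted p = 0.0115). GRB2 was lower by -0.36 (adjusted p = 0.0233) and FOXO4 by -0.61 (adjusted p = 0.0387). STC1 passed without each of the 4 samples in turn. ESM1, PIK3R1, GRB2 and FOXO4 did not pass without any of the 4, and PAPPA and PIK3R2 did not pass without wild type knock-in sample 2 or mutant knock-in sample 2.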

How the results depend on the processing

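Of 256 results of the IGF axis genes with a sample left out, 202 kept direction and side of the threshold, 31 lost and 4 gained a call, and 19 changed sign; of 448 under the other alternatives, 405 kept both, 14 lost and 20 gained a call, and 9 changed sign. Every change of sign was of a gene that had no call in that comparison. With 2 samples a group, leaving out 1 leaves the other to stand for its group with the spread of the rest. The cause of the changes below was not tested. Counts of members and pathway genes under an alternative are given without the share of all genes there. The number of all genes called moved too, so these counts only show dependence on the processing.

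Members called in the knockout against senescent control numbered 1 under upper-quartile scaling, 4 without the filter and 4 with only the compared groups; in the wild type knock-in against the knockout 5 with only the compared groups; in the mutant knock-in against the knockout 5 under upper-quartile scaling and 6 with only the compared groups; in mutant against wild type 2 without the filter, 1 with DESeq2 and 1 with only the compared groups. Genes called with only the compared groups were 5621 in the knockout against senescent control (2646 with all groups), 4078 in mutant against wild type (2103) and 5108 in the knockout against growing control (7772), and pathway genes called were 23 in the knockout against senescent control and 22 in the wild type knock-in against the knockout. With a sample left out, genes called ran from 1198 to 1368 in the knockout against senescent control, 3390 to 4150 in the wild type knock-in against the knockout, 123 to 1178 in mutant against wild type, 4367 to 5367 in the wild type knock-in against senescent control, and 5014 to 9129 in the knockout against growing control. Members called ran from 1 to 2 in the knockout against senescent control and 4 to 7 in the knockout against growing control. Pathway genes called ran from 8 to 9 in the wild type knock-in against the knockout, 13 to 18 in the mutant knock-in against the knockout, 1 to 3 in mutant against wild type, and 11 to 14 in the wild type knock-in against senescent control.

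Sign changes under upper-quartile scaling were IGFBP2 at 0.047 in the mutant knock-in against the knockout, 0.038 in the wild type knock-in and 0.033 in the mutant knock-in against senescent control, and IGFBP7 at 0.0070 in mutant against wild type. With no filter they were IGFBP6 at -0.011 in the knockout against senescent control and IGF2 at -0.016 in the mutant knock-in against the knockout; with DESeq2, IGFBP6 at -0.0026 in the knockout against senescent control; and with only the compared groups, IGFBP2 at 0.0085 in the mutant knock-in against the knockout and 0.00025 in the wild type knock-in against senescent control. With a sample left out, the log2 change of IGFBP2 ran from -0.12 to 0.020 in the knockout against senescent control, -0.23 to 0.23 in the wild type knock-in and -0.21 to 0.12 in the mutant knock-in against the knockout, -0.28 to 0.18 in the wild type knock-in and -0.26 to 0.055 in the mutant knock-in against senescent control, and -0.26 to 0.20 in mutant against wild type. IGFBP6 ran from -0.25 to 0.30 in the knockout and -0.26 to 0.30 in the wild type knock-in against senescent control, and -0.16 to 0.14 in the wild type knock-in against the knockout. IGF2 ran from -0.081 to 0.062 in the mutant knock-in and -0.084 to 0.0046 in the wild type knock-in against the knockout, and -0.067 to 0.15 in mutant against wild type. IGFBP7 ran from -0.13 to 0.050 in mutant against wild type.

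Same-numbered samples did not deviate together over all genes tested (correlations of -0.089 to 0.045), and the labels give no pairing. A pairing that acts on few genes could not be seen in this check. With the replicate block, IGFBP7 in senescent control against growing control (adjusted p = 0.0564) and IGF1R in the knockout against growing control (adjusted p = 0.0523) did not pass, nor did FOXO4 in the wild type knock-in against the knockout (0.0524) and in mutant against wild type (0.0528), or PAPPA2 in the mutant knock-in against senescent control (0.0586). The block changed no other call of a named gene. Upper-quartile scaling put the median of all genes in the mutant knock-in against senescent control at 0.134, and IGFBP7 and IGF1R calls there stayed higher.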
